A study of Homo sapiens with 14 samples.

Results

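The transcripts of 9 genes were followed across starvation and siRNA silencing in a human pancreatic cancer cell line. They were the ELR-type CXC chemokines CXCL8, CXCL1, CXCL2 and CXCL3, the cytokines LIF and IL6, the receptor subunits IL6ST and LIFR of the IL6 family, and the interleukin 1 receptor IL1R1. The genes were picked by name, as the transcript cluster of the array annotated with each symbol. Each had 1 such cluster, so that 9 of the 18377 genes with a cluster of a single symbol were described. Of these, 7 passed a filter that left out the dimmest 40% of genes by mean level (at or under 5.80 on the log2 scale), among 11026 genes tested. CXCL3 and IL6 were under it and are called dim.

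The cells were MiaPaCa2, an established line from a human pancreatic tumour, and total RNA was measured on 14 Affymetrix gene arrays in 2 sets. In the set called the NF-kB set here, cells transfected with siRelA (against RELA, the p65 subunit of NF-kB), with siRelB (against RELB) or with scrambled siCtrl were each kept for 9 h in EBSS or in a medium labelled mock. In the set called the Nupr1 set, cells transfected with siNupr1 (against the stress protein NUPR1) or with siCtrl were sampled before starvation (0 h) or 3, 6 and 9 h into EBSS. EBSS is a salt solution that, per the labels, lacks glucose, amino acids and growth factors, and starved and unstarved cells were otherwise grown in DMEM with serum. Each combination of transfection, medium and hour was measured on 1 array, and nothing said whether arrays of a set came from separate cultures. The p-values thus measured the spread of these arrays around an additive fit of siRNA and condition, which may be technical. That spread also holds any dependence of an siRNA difference on medium or hour. The composition of the mock medium was not given in the labels, the 0 h arrays were titled DMEM but described as EBSS, and the 9 h siNupr1 array carried the title sip9 in place of sip8 and was placed by its source label. All siRNAs were given at 140 ng with the INTERFERin reagent, and a pair of siRNAs each was listed for NUPR1 and RELB without saying which one an array received.

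CXCL8 and CXCL1 to CXCL3 are secreted peptides that attract neutrophils through the receptors CXCR1 and CXCR2, and in pancreatic cancer they are known as products of NF-kB activity. LIF and IL6 belong to one cytokine family whose receptors share the signalling subunit gp130, encoded by IL6ST. LIF binds LIFR, which pairs with gp130, and the pair signals through JAK kinases to STAT3. IL1R1 is the signalling receptor for interleukin 1, a strong activator of NF-kB.

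Since silencing of RELA and RELB is set against these genes below, the sequence next to their start sites is shown for the chemokines and IL6, in which a kappaB-type motif lay close to the start. The stretches run from position -130 to -1 before the annotated start, 5′ to 3′ on the strand of the gene, from RefSeq on GRCh38.p14, and capitals mark each match to GGNNTTTCC on either strand.
CXCL8 promoter, chr4:73740439-73740568 (+): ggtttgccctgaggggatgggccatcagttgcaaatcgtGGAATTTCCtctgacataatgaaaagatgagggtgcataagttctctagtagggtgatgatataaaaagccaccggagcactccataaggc
CXCL1 promoter, chr4:73869263-73869392 (+): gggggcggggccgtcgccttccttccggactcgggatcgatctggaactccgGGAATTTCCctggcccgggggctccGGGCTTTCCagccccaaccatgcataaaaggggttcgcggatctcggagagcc
CXCL2 promoter, chr4:74099196-74099325 (-): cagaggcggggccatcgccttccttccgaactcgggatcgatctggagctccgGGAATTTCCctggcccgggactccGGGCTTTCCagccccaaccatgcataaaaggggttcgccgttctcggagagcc
CXCL3 promoter, chr4:74038690-74038819 (-): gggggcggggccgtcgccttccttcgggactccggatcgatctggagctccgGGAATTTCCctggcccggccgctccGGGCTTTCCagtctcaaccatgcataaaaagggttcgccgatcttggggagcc
IL6 promoter, chr7:22727070-22727199 (+): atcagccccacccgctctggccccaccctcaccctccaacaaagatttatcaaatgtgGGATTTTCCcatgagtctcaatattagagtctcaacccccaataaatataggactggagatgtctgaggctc
The CXCL8 stretch held 1 match at position -91 and the IL6 stretch 1 match at -72, counted at the first base. CXCL1 and CXCL3 held 2 matches each at -78 and -53, and CXCL2 2 matches at -77 and -53. Entries were found for 8 of the 9 genes, all but LIF, which was not searched. Over the 250 bases before the start, 5.48% of 35116 promoters held a match, and the promoters of IL6ST, LIFR and IL1R1 held none in that window. The stretches of CXCL1 and CXCL2 shared 121 of 130 bases (93.1%), those of CXCL1 and CXCL3 119 bases (91.5%), and those of CXCL8 and CXCL1 66 bases (50.8%). An AP-1 type motif (TGANTCA, in 6.57% of promoters) lay at -137 in CXCL8 and a STAT type motif (TTCNNNGAA, in 6.57%) at -165 in LIFR, while none of these promoters held a CEBP-ATF type motif (TGATGNAA, in 3.14%). These are matches of letters to the patterns given, with no measurement of binding. Sites with other letters, C/EBP sites among them, were not searched.

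The siRNAs against the NF-kB subunits are shown because the silencing results rest on them, with the 15 bases that the listed siRelB siRNAs have in common in capitals.
siRelA: gaucaauggcuacacagg
siRelB: GGAUUUGCCGAAUUAacaa
siRelB#2: cugcGGAUUUGCCGAAUUAuu
Each siRNA lowered its own target across the matched pairs of arrays. RELA had a log2 difference of -2.49 ± 0.13 with siRelA (SE, 2 pairs, limma adjusted p = 2.96e-10). RELB had a log2 difference of -1.32 ± 0.17 with siRelB (2 pairs, adjusted p = 3.62e-05), and NUPR1 one of -0.87 ± 0.10 with siNupr1 (4 pairs, adjusted p = 1.95e-05). NUPR1 stood at 5.59, 6.33, 6.28 and 6.64 at 0, 3, 6 and 9 h with siNupr1, and at 6.27, 7.25, 7.49 and 7.30 with siCtrl. It thus still rose in EBSS with siNupr1, and no starved siNupr1 array was below the unstarved siCtrl array. siNupr1 also gave a log2 difference of -0.67 ± 0.12 for RELB (limma adjusted p = 0.000945). Array medians lay between 5.67 and 5.84. The keratins KRT8, KRT18, KRT19 and KRT7 passed the filter, and EPCAM and CDH1, which also mark epithelium, were dim at means of 3.56 and 4.53. The pan-leukocyte gene PTPRC was dim at 2.65, as were the fibroblast genes DCN, LUM and PDGFRA, while CD68, CD14, COL1A1, COL1A2, COL3A1 and CLDN5 passed. The averages of the 6 epithelial and 6 fibroblast markers ranged from 8.13 to 8.67 and from 5.27 to 5.65 over the arrays, those of the 5 measured leukocyte and 6 endothelial markers from 5.25 to 5.59 and from 4.73 to 5.30.

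LIF rose in EBSS at every time and in both sets. In the NF-kB set its log2 levels in EBSS were 7.96 with siRelA, 8.22 with siRelB and 8.72 with siCtrl, against 6.75, 7.02 and 7.42 in mock medium. The lowest EBSS array was above the highest mock array, and within either medium siRelA was lowest and siCtrl highest. The difference of EBSS minus mock was 1.23 ± 0.12 (SE, 3 pairs, adjusted p = 5.17e-08), a 2.35-fold higher level. In the Nupr1 set LIF stood at 7.11, 8.55, 8.52 and 8.53 at 0, 3, 6 and 9 h with siNupr1, and at 7.38, 8.99, 9.14 and 9.53 with siCtrl. Both 0 h arrays lay more than 1 log2 unit below all 6 starved arrays. The level with siNupr1 was flat over the starved arrays, and that with siCtrl was highest at 9 h. Those siNupr1 arrays, as neighbours in order of level, differed by less than the spread of a difference, 0.20. That spread, here and below, is the SE of a difference between single arrays and is not a test. The differences from 0 h were 1.53 ± 0.14 at 3 h, 1.58 ± 0.14 at 6 h and 1.79 ± 0.14 at 9 h (SE, 2 pairs each), or 2.88-fold, 3.00-fold and 3.45-fold, with limma adjusted p of 9.17e-07, 3.53e-07 and 4.80e-08. At 9 h in the Nupr1 set 10 of the 11026 genes had a larger positive difference than LIF, and in the NF-kB set 8 had.

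Of CXCL8, CXCL1 and CXCL2, CXCL2 passed the test in starvation, and the call in the NF-kB set rested on the siCtrl arrays. Its levels were 6.91, 7.16 and 7.86 in EBSS with siRelA, siRelB and siCtrl, against 6.61, 6.90 and 7.08 in mock medium. EBSS was higher in each of the 3 pairs, by 0.30, 0.26 and 0.78, although the ranges of the media overlapped. The fitted difference was 0.45 ± 0.12 (SE, 3 pairs, adjusted p = 0.00425), and it was not called without either siCtrl array. In the Nupr1 set CXCL2 had 6.26, 6.80, 6.29 and 7.26 at 0, 3, 6 and 9 h with siNupr1, and 6.68, 6.88, 6.35 and 7.66 with siCtrl. The 9 h arrays were highest with either siRNA and the 6 h arrays were near or below those at 0 h. CXCL2 rose by 0.99 ± 0.15 at 9 h (SE, 2 pairs, adjusted p = 5.43e-05), and its differences were 0.38 ± 0.15 at 3 h (adjusted p = 0.0965) and -0.14 ± 0.15 at 6 h (adjusted p = 0.517).

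CXCL8 did not pass the test for starvation in either set. Its levels were 8.03, 8.93 and 9.89 in EBSS with siRelA, siRelB and siCtrl, against 8.65, 8.46 and 9.43 in mock medium. EBSS was higher with siRelB and siCtrl, by 0.47 and 0.46, and lower with siRelA, at a difference of -0.61. The pooled difference was 0.11 ± 0.18 (95% interval -0.27 to 0.48, adjusted p = 0.62), and without the siRelA EBSS or the siRelA mock array it was 0.47 and passed (adjusted p = 0.0417). In the Nupr1 set CXCL8 stood at 8.11, 8.13, 7.99 and 8.34 at 0, 3, 6 and 9 h with siNupr1, and at 8.68, 9.75, 8.74 and 9.21 with siCtrl. The siCtrl array at 3 h was the highest, at 1.07 above its 0 h array, while the siNupr1 arrays moved by no more than 0.23 from theirs. Pooled over both siRNAs the differences from 0 h were 0.55 ± 0.22 at 3 h (adjusted p = 0.11), -0.03 ± 0.22 at 6 h (adjusted p = 0.946) and 0.38 ± 0.22 at 9 h (adjusted p = 0.23). The 3 h difference passed when 1 of 4 arrays was left out, either siRelA array or either 3 h or 0 h siNupr1 array (lowest adjusted p = 0.027).

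CXCL1, whose promoter stretch is nearly that of CXCL2, also did not pass in starvation. It had 10.18, 10.37 and 10.24 in EBSS with siRelA, siRelB and siCtrl, against 10.81, 10.29 and 10.05 in mock medium. The siRelA mock array stood above the other five, and the media overlapped. The difference was -0.12 ± 0.14 (95% interval -0.42 to 0.18, adjusted p = 0.48). In the Nupr1 set the levels were 8.98, 8.22, 8.59 and 8.61 with siNupr1 at 0, 3, 6 and 9 h, and 9.10, 9.19, 9.03 and 9.38 with siCtrl. Every array of the Nupr1 set was below every array of the NF-kB set, and the siCtrl EBSS 9 h arrays of the sets differed by 0.86. CXCL1 differed from 0 h by -0.34 ± 0.18, -0.23 ± 0.18 and -0.04 ± 0.18 at 3, 6 and 9 h, with limma adjusted p of 0.233, 0.373 and 0.904.

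The receptors IL1R1, IL6ST and LIFR fell in EBSS against mock medium. In bulk RNA of this line, fewer cells with a transcript and less of it per cell cannot be told apart. IL1R1 had 7.56, 7.31 and 6.50 in EBSS with siRelA, siRelB and siCtrl, against 9.04, 9.13 and 8.15 in mock medium. The media did not overlap, and siCtrl was lowest in either. The difference was -1.65 ± 0.10 (SE, 3 pairs, adjusted p = 9.72e-10), a 3.15-fold lower level, and 48 of the 11026 genes had a more negative one. In the Nupr1 set IL1R1 stood at 8.42, 7.66, 7.26 and 7.28 at 0, 3, 6 and 9 h with siNupr1, and at 8.57, 7.75, 7.11 and 7.13 with siCtrl. Both siRNAs gave the same course, highest at 0 h, and the 6 and 9 h arrays did not differ beyond the spread of a difference. The differences were -0.78 ± 0.13 at 3 h, -1.31 ± 0.13 at 6 h and -1.29 ± 0.13 at 9 h (SE, 2 pairs each), with limma adjusted p of 0.000462, 9.16e-07 and 5.02e-07.

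IL6ST had 5.28, 5.87 and 6.70 in EBSS with siRelA, siRelB and siCtrl, against 6.26, 7.19 and 8.09 in mock medium. EBSS was lower in each pair, the ranges of the media overlapped because the siRNAs spread widely, and the siRelA EBSS array was under the filter level. LIFR had 5.95, 6.15 and 6.36 in EBSS with siRelA, siRelB and siCtrl, against 7.03, 7.12 and 8.03 in mock medium, with no overlap. IL6ST fell by 1.23 ± 0.13 on the log2 scale (SE, 3 pairs, adjusted p = 2.08e-07), and LIFR fell by 1.24 ± 0.13 (adjusted p = 1.89e-07).

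IL6ST and LIFR did not pass in the time course, where starved arrays were set against 0 h. IL6ST stood at 7.41, 7.44, 7.37 and 7.87 at 0, 3, 6 and 9 h with siNupr1, and at 8.48, 7.94, 7.87 and 8.13 with siCtrl. The siCtrl arrays were lower in EBSS than at 0 h at all 3 times, and the siNupr1 arrays were within 0.03 of 0 h at 3 and 6 h. LIFR stood at 7.20, 7.14, 7.61 and 7.79 with siNupr1 at those times, and at 7.88, 7.69, 7.90 and 7.94 with siCtrl. At 9 h IL6ST differed from 0 h by 0.06 ± 0.16 (adjusted p = 0.853) and LIFR by 0.32 ± 0.16 (adjusted p = 0.156). Without the siNupr1 0 h array IL6ST passed at 3 h (-0.58, adjusted p = 0.0268) and at 6 h (-0.65, adjusted p = 0.0074). Tested directly, the starvation difference at 9 h was lower in the NF-kB set than in the Nupr1 set for 4 of the 7 tested genes, LIFR, IL6ST, LIF and CXCL2, where 24.5% of all genes passed (16.4% lower). The contrasts differ in the set itself and in their baseline, mock medium at 9 h in one set and unstarved cells at 0 h in the other.

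In EBSS against mock medium 2 of the 7 tested genes rose, LIF and CXCL2, and 3 fell, where 51.9% of all tested genes passed (22.6% higher and 29.3% lower). In the time course LIF rose and IL1R1 fell at 3 h, where 12.3% of all genes passed (3.27% higher and 9.07% lower), and at 6 h, where 23.4% passed (7.65% higher and 15.7% lower). CXCL2 joined LIF at 9 h, where 24.3% passed (9.19% higher and 15.1% lower). After quantile normalisation 42.7% of the genes called at 3 h and 44.4% at 6 h were higher, against 26.5% and 32.7% as deposited. The differences of genes went with their genomic span in EBSS against mock medium: Spearman's rho was -0.424 over 11019 genes, a description across genes, which are not independent replicates. In the Nupr1 set rho was weaker, at -0.199, -0.128 and -0.0226 at 3, 6 and 9 h against 0 h. For silencing rho was -0.187 with siNupr1, 0.0482 with siRelA and -0.0213 with siRelB. After removal of the span trend 5 of the 7 tested genes were called with siNupr1. IL6ST, LIFR and IL1R1 span 59.9, 134 and 109 kb, above the median of 24.7 kb, and LIF, CXCL2, CXCL8 and CXCL1 span 6.31, 2.16, 3.15 and 1.92 kb. With the span trend removed, the differences in EBSS against mock medium were -1.06 for IL6ST, -0.98 for LIFR, -1.41 for IL1R1 and 1.07 for LIF. Those were all still called, and CXCL2 at 0.25 was not (limma adjusted p = 0.113). In the same contrast the 4 tested epithelial markers rose by 0.14 to 0.49 and COL1A2 fell by 0.91, a collagen gene that also fell at 3, 6 and 9 h. CD68, known as a macrophage marker, rose by 0.56 and CLDN5, known as an endothelial one, by 0.45. All arrays came from the MiaPaCa2 line, so these were read as transcripts of that line. The part of these markers in the results was not tested.

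**Figure D1:**
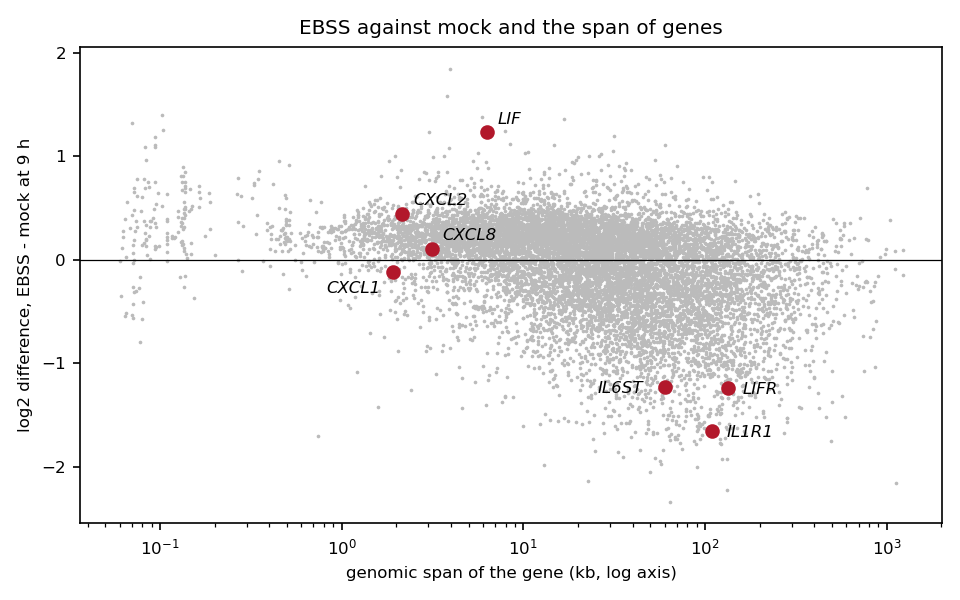
Difference of EBSS minus mock medium at 9 h (log2, y axis) against genomic span (kb, log axis), 1 grey point per tested gene, with the 7 tested genes of this report in red. IL6ST, LIFR and IL1R1 are long genes with differences between -1.65 and -1.23, and LIF is a short gene at 1.23.

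**Figure D2:**
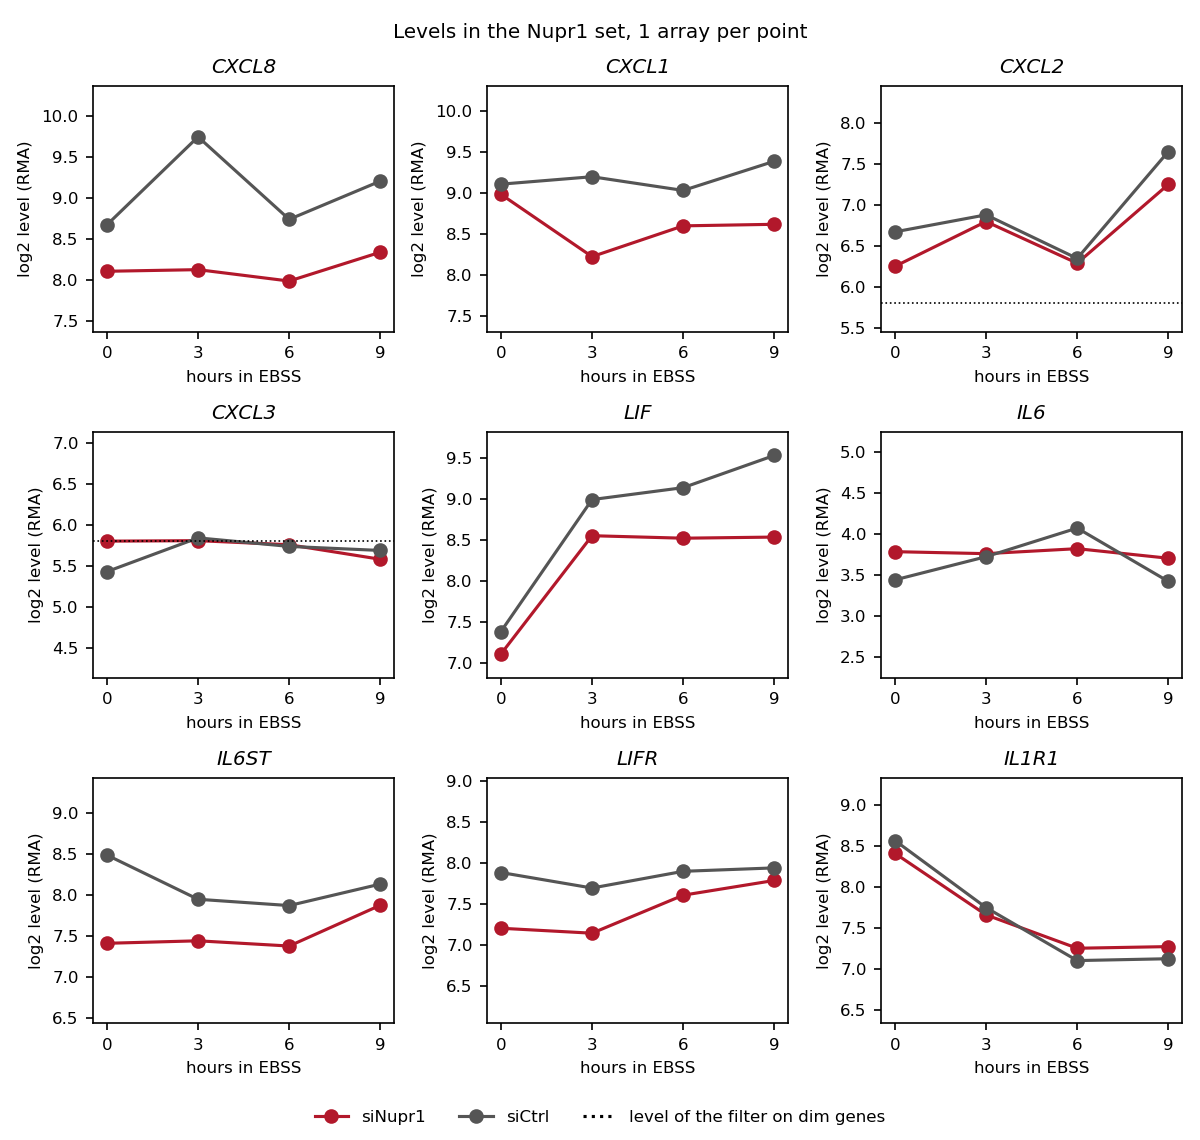
Log2 level (RMA, y axis, each panel spanning 3 log2 units) against hours in EBSS in the Nupr1 set, siNupr1 in red and siCtrl in grey, 1 array per point, with the filter level dotted. All 4 siNupr1 arrays of CXCL8 and CXCL1 lie below all 4 siCtrl arrays, for CXCL1 by a gap within the spread, and the curves of IL1R1 run together.

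Silencing of NUPR1 lowered CXCL8, CXCL1, LIF, IL6ST and LIFR, 5 of the 7 tested genes, and raised none, where 18.4% of all tested genes passed (9.86% higher and 8.58% lower). The epithelial marker KRT19 and the macrophage marker CD68 rose with siNupr1 as well, by 0.61 and 0.55, and their part in these results was not tested. CXCL8 was at 7.99 to 8.34 in the 4 siNupr1 arrays, against 8.68 to 9.75 in the 4 siCtrl arrays, with no overlap. Its siNupr1 minus siCtrl differences were -0.57, -1.62, -0.75 and -0.87 at 0, 3, 6 and 9 h. The fitted difference was -0.95 ± 0.15 (SE, 4 pairs, adjusted p = 0.000386), a 1.93-fold lower level, and 1 of the 11026 tested genes had a more negative one.

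CXCL1 was at 8.22 to 8.98 with siNupr1, against 9.03 to 9.38 with siCtrl. These ranges did not overlap, but the gap between them, 0.05, was within the spread of a difference, 0.25. Its pair at 0 h differed by -0.12 and those at 3, 6 and 9 h by -0.97, -0.43 and -0.77. CXCL1 fell by 0.57 ± 0.12 on the log2 scale (SE, 4 pairs, adjusted p = 0.00342), and the call ended without the siCtrl EBSS 3 h array (adjusted p = 0.0507). CXCL2 was lower with siNupr1 in all 4 pairs, at -0.24 ± 0.10, and did not pass (95% interval -0.46 to -0.03, adjusted p = 0.111).

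LIF differed by -0.27, -0.44, -0.62 and -0.996 at 0, 3, 6 and 9 h, so that siNupr1 was lower in every pair and furthest at 9 h. The fitted difference of LIF was -0.58 ± 0.10 (SE, 4 pairs, adjusted p = 0.000605). IL6ST differed by -1.08, -0.51, -0.49 and -0.26 at those times, furthest at 0 h, with a fitted difference of -0.58 ± 0.11 (adjusted p = 0.00138). LIFR differed by -0.68, -0.55, -0.29 and -0.15, again furthest at 0 h, and the fit gave -0.42 ± 0.11 (adjusted p = 0.0129). That call ended without either of the 0 h or either of the 3 h arrays, each left out alone (adjusted p up to 0.0932). IL1R1 differed by -0.16, -0.09, 0.15 and 0.15 and did not pass (0.01 ± 0.09, 95% interval -0.17 to 0.20, adjusted p = 0.949).

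Whether the siNupr1 difference changed with hours was tested as a slope. LIF had a slope of -0.08 ± 0.02 log2 units per hour (unadjusted p = 0.00161, limma adjusted p = 0.114) and IL6ST one of 0.08 ± 0.03 (unadjusted p = 0.00636, adjusted p = 0.132). None of the 7 genes passed in limma, and none of the 11026, of which 2149 (19.5%) had an unadjusted p under 0.05. With each set fitted alone 841 genes passed, LIF (adjusted p = 0.0236) and IL6ST (adjusted p = 0.0353) among them. CXCL8 had a slope of -0.0012 ± 0.05.

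**Figure D3:**
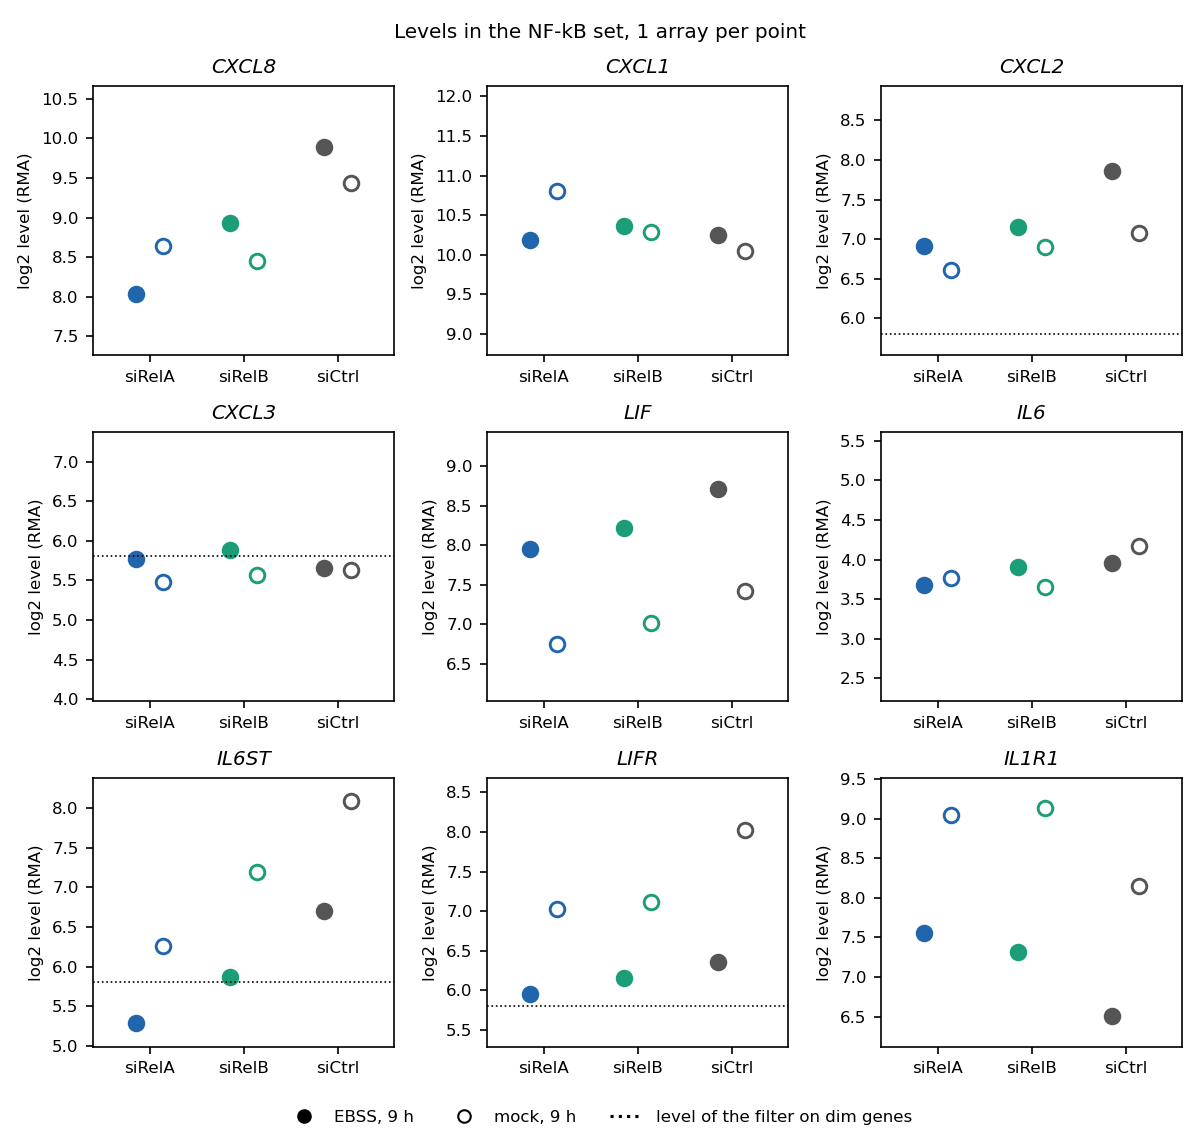
Log2 level (RMA, y axis, each panel spanning 3.4 log2 units) in the NF-kB set by siRNA (x axis), filled points EBSS and open points mock medium, 1 array per point, with the filter level dotted. CXCL8, LIF and IL6ST are lower with siRelA and siRelB than with siCtrl in either medium, and IL1R1 is higher.

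Silencing of RELA lowered CXCL8, CXCL2, LIF, IL6ST and LIFR and raised IL1R1, 6 of the 7 tested genes, where 21.5% of all tested genes passed (10.1% higher and 11.4% lower). The same genes passed in the same directions with siRelB, where 16.1% of all genes passed (7.58% higher and 8.55% lower). Both contrasts used the same siCtrl arrays, so the second is no independent repeat of the first. The array values are those of the NF-kB set given for starvation.

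CXCL8 had 8.03 and 8.65 with siRelA in EBSS and mock medium and 8.93 and 8.46 with siRelB, against 9.89 and 9.43 with siCtrl. All 4 arrays with siRelA or siRelB were below both siCtrl arrays. The differences were -1.32 ± 0.22 with siRelA (SE, 2 pairs, adjusted p = 0.000262), a 2.50-fold lower level, and -0.97 ± 0.22 with siRelB (adjusted p = 0.0043). The siRelA difference was -0.78 without the siRelA EBSS array (adjusted p = 0.0308) and -1.86 without the siRelA mock array. The siRelB call ended without the siCtrl EBSS or the siRelB mock array (adjusted p up to 0.163).

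CXCL2 fell by 0.71 ± 0.15 on the log2 scale with siRelA (adjusted p = 0.00165) and fell by 0.44 ± 0.15 with siRelB (adjusted p = 0.0435). The gap to siCtrl was wider in EBSS, at -0.95 with siRelA and -0.70 with siRelB, than in mock medium, at -0.47 and -0.18. The siRelA call ended without either EBSS array of its pairs (adjusted p up to 0.11) and the siRelB call under 7 alternatives (adjusted p up to 0.617). CXCL1, which also has 2 kappaB-type matches, did not pass with siRelA (0.35 ± 0.18, 95% interval -0.02 to 0.71, adjusted p = 0.18) or with siRelB (0.18 ± 0.18, 95% interval -0.19 to 0.55, adjusted p = 0.566). The siRelA difference of CXCL1 was 0.73 and passed without the siRelA EBSS array (adjusted p = 0.0202), and it was -0.03 without the siRelA mock array. CXCL1, CXCL2 and CXCL3 are close relatives, and how far their probes take up each other's transcripts was not tested.

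LIF differed from siCtrl by -0.76 in EBSS and -0.67 in mock medium with siRelA, and by -0.50 and -0.40 with siRelB. LIF was thus lower in every pair, with fitted differences of -0.72 ± 0.14 with siRelA (adjusted p = 0.00119) and -0.45 ± 0.14 with siRelB (adjusted p = 0.035). The siRelB call was lost without any one of the 4 arrays of its pairs (adjusted p up to 0.241). The rise of LIF in EBSS was of like size with each siRNA, 1.21 with siRelA, 1.20 with siRelB and 1.30 with siCtrl.

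IL6ST had the widest range of the receptor genes over the NF-kB set, from 5.28 in the siRelA EBSS array to 8.09 in the siCtrl mock array. Neighbours in the order of its 6 levels were at least 0.39 apart, against a spread of a difference of 0.22. That spread is an SE and not a test, and each level rests on 1 array. It fell by 1.62 ± 0.16 on the log2 scale with siRelA (SE, 2 pairs, adjusted p = 1.03e-06), a 3.08-fold lower level, and 8 of the 11026 genes had a more negative difference. With siRelB it fell by 0.87 ± 0.16 (adjusted p = 0.000774). LIFR fell by 0.70 ± 0.16 with siRelA (adjusted p = 0.00316) and fell by 0.56 ± 0.16 with siRelB (adjusted p = 0.0197). Its gap to siCtrl was -0.99 with siRelA and -0.91 with siRelB in mock medium, and -0.41 and -0.21 in EBSS, where all LIFR levels were near the filter level. Both LIFR calls ended without either mock array of their pairs (adjusted p up to 0.21 with siRelA and 0.523 with siRelB).

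IL1R1 was higher than siCtrl by 1.05 in EBSS and 0.89 in mock medium with siRelA, and by 0.81 and 0.98 with siRelB. Both siRelA and both siRelB arrays lay above the siCtrl array of the same medium. With siRelA IL1R1 rose by 0.97 ± 0.13 (SE, 2 pairs, adjusted p = 2.74e-05). With siRelB it rose by 0.89 ± 0.13 (adjusted p = 7.95e-05). Of the marker genes COL1A2 was higher with siRelA by 0.44 and KRT8 differed by -0.21 with siRelB, and their part in these results was not tested.

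Set directly against each other, siRelB and siRelA differed for IL6ST, which was higher with siRelB by 0.76 ± 0.16 (SE, 2 pairs, adjusted p = 0.00397), where 10.1% of all genes passed (5.46% higher and 4.61% lower). That call ended without the siRelA mock or the siRelB mock array (adjusted p up to 0.153). In the same contrast COL1A2 differed by -0.65, KRT8 by -0.36 and KRT18 by -0.22, and their part in the result was not tested. CXCL8 differed by 0.35 ± 0.22 (95% interval -0.10 to 0.81, adjusted p = 0.368, and 0.89 with an adjusted p of 0.0376 without the siRelA mock array), LIF by 0.27 ± 0.14 (-0.03 to 0.56, adjusted p = 0.275) and IL1R1 by -0.08 ± 0.13 (-0.34 to 0.19, adjusted p = 0.798), and these intervals hold both no difference and a moderate one.

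The test of whether the silencing difference itself depended on the medium took its spread from the Nupr1 set, since 1 array per combination leaves none in the NF-kB set. For siRelA, CXCL8 had a difference in EBSS minus that in mock medium of -1.07 ± 0.35 (unadjusted p = 0.00616, limma adjusted p = 0.666) and CXCL1 one of -0.82 ± 0.30 (unadjusted p = 0.0133, adjusted p = 0.81). None of the 7 genes passed, and 4 of the 11026 genes (0.0363%) did, with 572 at an unadjusted p under 0.05. For siRelB none of the 7 and none of all genes passed in limma, with 401 at an unadjusted p under 0.05, and LIFR had 0.70 ± 0.29 (unadjusted p = 0.0249, adjusted p = 0.9996).

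**Figure D4:**
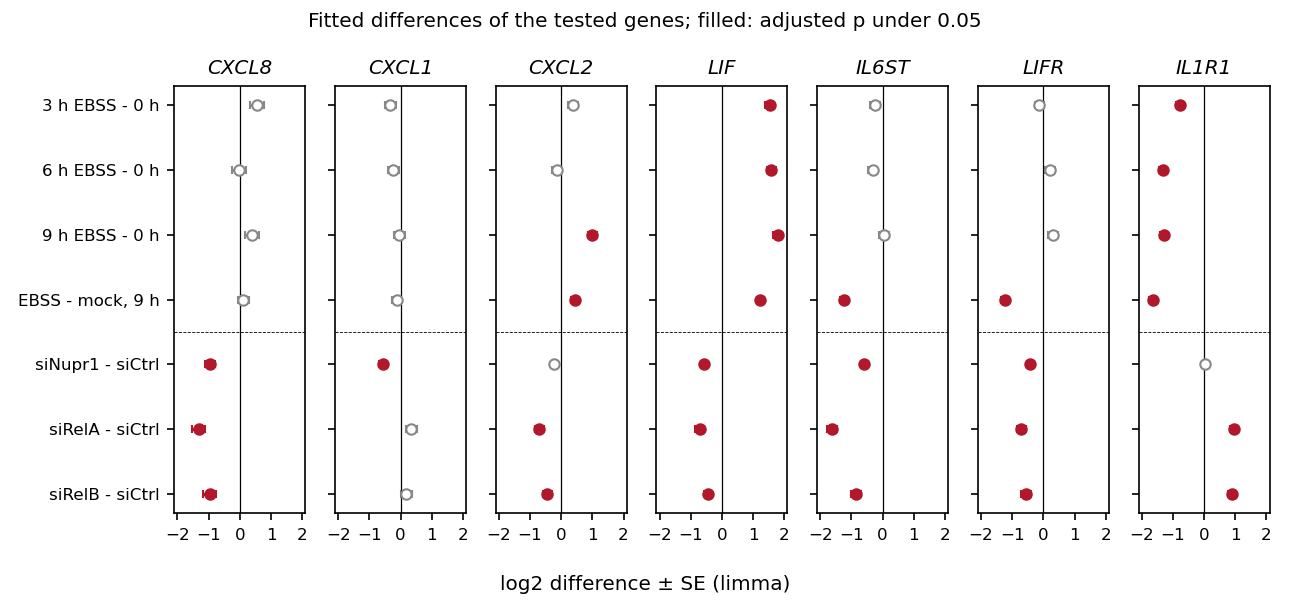
Fitted log2 differences ± SE (x axis, limma over all 14 arrays) of the 7 tested genes, 1 panel per gene, for starvation (above the dashed line) and silencing (under it), with filled red points at an adjusted p under 0.05. LIF lies right of 0 in all 4 starvation contrasts and left of 0 in all 3 silencing contrasts, and IL1R1 lies left of 0 in starvation and right of 0 with siRelA and siRelB.

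The dim genes gave little to compare. IL6 lay between 3.43 and 4.17 on all 14 arrays, at 3.68, 3.90 and 3.95 in EBSS with siRelA, siRelB and siCtrl, against 3.76, 3.65 and 4.17 in mock medium. With siNupr1 it had 3.79, 3.77, 3.83 and 3.71 at 0, 3, 6 and 9 h, and with siCtrl 3.45, 3.73, 4.08 and 3.43. CXCL3 lay between 5.43 and 5.88, with 12 of 14 arrays under the filter level. It had 5.77, 5.88 and 5.66 in EBSS with siRelA, siRelB and siCtrl, against 5.47, 5.56 and 5.63 in mock medium. With siNupr1 CXCL3 had 5.80, 5.80, 5.75 and 5.58 at 0, 3, 6 and 9 h, and with siCtrl 5.43, 5.84, 5.73 and 5.68. When all 18377 genes were fitted, neither IL6 nor CXCL3 passed in any contrast. In EBSS against mock medium CXCL3 had 0.21 ± 0.12 (adjusted p = 0.185) and IL6 -0.02 ± 0.14 (adjusted p = 0.917). IL6 lay well below the array medians and CXCL3 near them.

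Across the 14 arrays, with the mean of each set subtracted, IL6ST and LIFR had a Pearson correlation of 0.882 and LIF and IL1R1 one of -0.883. CXCL8 correlated at 0.595 with CXCL2 and at 0.388 with CXCL1, and CXCL1 with CXCL2 at 0.0409. These are descriptions over arrays that share the media and siRNAs. The 5 tested genes most like CXCL8 by that measure were TNFRSF9 (0.869), KBTBD2 (0.866), MCL1 (0.853), NFKBIA (0.848) and H1-4 (0.829). Those most like LIF were CHAC1 (0.957), CEBPB (0.950), MAFF (0.944), TNFRSF12A (0.942) and DDIT3 (0.940).

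Among other chemokines 4 of 20 with a cluster passed the filter. CXCL5, a further ELR-type ligand of CXCR2, fell in EBSS against mock medium by 0.55 ± 0.10 on the log2 scale (adjusted p = 0.000139), and it fell with siNupr1 by 0.27 ± 0.09 (adjusted p = 0.037), with siRelA by 0.38 ± 0.12 (adjusted p = 0.0322) and with siRelB by 0.87 ± 0.12 (adjusted p = 6.96e-05). CXCL16 fell at 9 h against 0 h in the Nupr1 set by 0.72 ± 0.13 (adjusted p = 0.000374). In EBSS against mock medium CXCL16 was not called, and its starvation difference was higher in the NF-kB set than in the Nupr1 set, by 0.92. CCL5 and CX3CL1 rose in EBSS against mock medium, by 0.37 ± 0.11 and 0.31 ± 0.13. CXCR1 and CXCR2, the receptors of the ELR-type chemokines, were dim at means of 3.74 and 3.16, and of 14 chemokine receptors with a cluster 2 passed the filter. Of those CXCR3 rose in EBSS against mock medium, by 0.47 ± 0.11, and fell with siNupr1 by 0.36 ± 0.10.

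Of 11 further ligands and receptors of the IL6 family with a cluster 8 passed the filter. In EBSS against mock medium IL11, another gp130 ligand, rose by 0.44 ± 0.11 and IL6R, the receptor that binds IL6, by 0.31 ± 0.12, while OSMR, the oncostatin M receptor, fell by 0.37 ± 0.09. None of the 8 passed at 3 or 6 h, where 12.3% and 23.4% of all genes passed, and at 9 h OSMR rose by 0.41 ± 0.11. With siNupr1 IL6R rose by 0.36 ± 0.10. None of the 8 passed with siRelA or siRelB, where 21.5% and 16.1% of all genes passed. Oncostatin M itself (OSM) was dim.

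The list of JAK-STAT genes and STAT3 targets, which act below gp130, had 22 tested genes. In EBSS against mock medium 11 rose and 4 fell (median 0.23, against 0.05 over all genes, of which 22.6% rose and 29.3% fell). The largest differences were those of the phosphatase PTPN11 at -1.34 ± 0.10, HIF1A at -1.28 ± 0.10, JUNB at 0.96 ± 0.12 and the kinase PIM1 at 0.95 ± 0.10. At 3, 6 and 9 h 8, 7 and 8 rose and 0, 0 and 1 fell. Of all genes 3.27%, 7.65% and 9.19% rose and 9.07%, 15.7% and 15.1% fell at those times. CEBPB differed by 1.06 ± 0.15, 1.24 ± 0.15 and 1.52 ± 0.15. With siNupr1 0 rose and 3 fell, VEGFA (-0.41 ± 0.11), JUNB (-0.36 ± 0.11) and MCL1 (-0.31 ± 0.09). With siRelA 4 rose and 2 fell, with STAT3 at 0.68 ± 0.08 (adjusted p = 7.09e-06), and with siRelB 3 rose and 3 fell. Of all genes 18.4%, 21.5% and 16.1% passed in these contrasts.

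The list of interleukin 1 genes and their signalling had 13 tested, and IL1A and IL1B, the ligands of IL1R1, were dim at means of 3.61 and 4.20, as was the co-receptor IL1RAP at 4.72. In EBSS against mock medium 3 rose and 4 fell, near the share of all genes (51.9% passed), with the kinase gene CHUK at -1.29 ± 0.11. CHUK also fell with siNupr1 (-0.62 ± 0.10), siRelA (-0.70 ± 0.14) and siRelB (-0.70 ± 0.14). With siNupr1 0 of the 13 rose and 2 fell, with siRelA 1 rose and 1 fell, and with siRelB 1 rose and 2 fell, where 18.4%, 21.5% and 16.1% of all genes passed.

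Among NF-kB subunits, inhibitors and feedback regulators 13 were tested. Starvation against mock medium raised 6 and lowered 3, where 22.6% of all genes rose and 29.3% fell, with NFKB2 at 1.12 ± 0.11 and RELB at 0.94 ± 0.14. At 3, 6 and 9 h 2, 5 and 5 rose and none fell, where 3.27%, 7.65% and 9.19% of all genes rose. With siNupr1 5 fell and none rose (median -0.25, against 0.01 over all genes), with NFKB2 at -0.82 ± 0.09 and the inhibitor NFKBIA at -0.76 ± 0.10. With siRelA, and likewise with siRelB, 4 fell and 1 rose, the silenced gene among the 4. Of all genes 8.58%, 11.4% and 8.55% fell with siNupr1, siRelA and siRelB. Of 12 other NF-kB target genes 3 fell with siNupr1, 3 with siRelA and 5 with siRelB, and none rose. PLAU, a plasminogen activator, was among them in all 3, at -0.27 ± 0.07, -0.73 ± 0.10 and -0.48 ± 0.10. In EBSS against mock medium 7 of the 12 rose and 2 fell, with IER3 at 0.71 ± 0.12.

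Chemokine and cytokine mRNAs are known to be short-lived through AU-rich elements, so regulators of mRNA decay and stability were listed. Not all of them act on those elements, and mRNA decay was not measured. Of 13 tested, 2 rose and 8 fell in EBSS against mock medium, where 22.6% of all genes rose and 29.3% fell. TIA1 was at -0.85 ± 0.11 and the decay factor ZFP36 at 0.60 ± 0.11 there. In the time course 2, 3 and 3 of the 13 rose at 3, 6 and 9 h, and 1, 2 and 3 fell. Of all genes 3.27%, 7.65% and 9.19% rose and 9.07%, 15.7% and 15.1% fell at those times. The starvation difference at 9 h was lower in the NF-kB set than in the Nupr1 set for 4 of the 13, and for 16.4% of all genes. In the silencing contrasts 1 rose and 3 fell with siNupr1, 2 rose and 2 fell with siRelA, and 0 rose and 4 fell with siRelB, where 18.4%, 21.5% and 16.1% of all genes passed. RC3H2, a roquin paralogue, fell with siNupr1 (-0.76 ± 0.09), siRelA (-1.37 ± 0.12) and siRelB (-1.29 ± 0.12). Of 14 stress and AP-1 genes, all but TRIB3 transcription factors, 10 rose and 1 fell in EBSS against mock medium. At 3, 6 and 9 h 10, 12 and 12 rose and none fell, where 3.27%, 7.65% and 9.19% of all genes rose. DDIT3, a stress factor downstream of ATF4, differed by 1.85 ± 0.16 in EBSS against mock medium and by 2.78 ± 0.19 at 9 h. With siNupr1 3 of the 14 fell and none rose, with EGR1 at -0.62 ± 0.14, with siRelA 1 rose and 2 fell, and with siRelB none passed. The shares of all genes that passed with these siRNAs were 18.4%, 21.5% and 16.1%.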

How the data were processed

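RNA of 14 arrays was labelled with an Affymetrix whole-transcript kit, per the labels' protocols. The deposited values are log2 intensities per transcript cluster, made by the authors with RMA, per the submitters' processing notes, which name limma too and no versions. The values were used as deposited, and no scanner files were used. Of 28869 clusters 19310 had 1 gene symbol, 1752 several and 7807 were not listed in the platform annotation, and 19279 clusters were matched to current symbols by Entrez ID. The brightest cluster stood for each of 18377 genes, and the lowest 40% by mean level were left out of the tests. All arrays entered 1 limma fit (lmFit and eBayes with an intensity trend, limma 3.58.1, R 4.3.3) with 9 columns: each set, EBSS against mock, each time against 0 h, and each siRNA. It left 5 residual degrees of freedom, 19.6 after moderation. P-values were adjusted by Benjamini-Hochberg over all 11026 tested genes, with a threshold of 0.05, and intervals are 95%. The fit was also run on data simulated from its own additive model, which cannot show how it behaves where that model fails. The SE is that of the fit, and the number of arrays limits precision. The members, the gene lists and the tests were chosen with earlier results of these data known. The text names all 9 genes, the silenced genes, from each list at most the 4 called genes with the largest difference, and the 5 genes most correlated with CXCL8 and with LIF. Dim genes and genes picked from marker lists are named as well. Promoter sequences and spans come from RefSeq on GRCh38.p14. Alternatives were the filter, the scaling, the trend, array weights, each set alone, the mean of clusters, each array left out and, chosen after seeing the data, removal of the span trend. Panc1 cells and siIER3, which the protocols mention, were not analysed here.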

Additional observations from a re-analysis of the deposited data

Results flagged for a closer look

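The starvation difference at 9 h differed between the sets for 4 of the 7 tested genes, tested as EBSS minus mock medium in the NF-kB set minus 9 h minus 0 h in the Nupr1 set (limma, where 24.5% of all tested genes passed and 16.4% were lower). LIFR had -1.56 ± 0.20 (adjusted p = 1.79e-05), from -1.24 in the NF-kB set against 0.32 in the Nupr1 set. IL6ST had -1.28 ± 0.20 (adjusted p = 0.000124), from -1.23 against 0.06. LIF had -0.56 ± 0.18 (adjusted p = 0.032), from 1.23 against 1.79, and CXCL2 had -0.54 ± 0.19 (adjusted p = 0.0403), from 0.45 against 0.99. The call of CXCL2 was lost under 11 alternatives (adjusted p up to 0.199) and that of LIF under 8 (adjusted p up to 0.236). Across genes the difference between the sets went with genomic span, at a Spearman's rho of -0.392 over 11019 genes. With the span trend removed 4 of the 7 genes passed. The sets differ in their baseline, mock medium at 9 h or unstarved cells at 0 h, and in the set itself, which cannot be told apart. The siCtrl arrays at 9 h in EBSS, the one combination in both sets, differed by -1.58 for LIFR, -1.42 for IL6ST, -0.81 for LIF and 0.20 for CXCL2 (NF-kB set minus Nupr1 set), and correlated at 0.905 over all tested genes. The siCtrl baselines, mock medium and 0 h, stood at 8.03 and 7.88 for LIFR and at 8.09 and 8.48 for IL6ST. For LIF they stood at 7.42 and 7.38, and for CXCL2 at 7.08 and 6.68.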

How the results depend on the processing

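Of the 30 calls on these genes in the 8 comparisons, 20 held under every alternative run and 10 were lost under at least 1; none changed sign, and 7 of 26 uncalled differences passed under at least 1. With each set fitted alone the number of these genes whose siNupr1 difference changed with hours was 2 (LIF and IL6ST, adjusted p = 0.0236 and 0.0353), against 0, and 841 of all genes, against 0. The starvation difference between the sets passed for 2 of them with no filter and for 2 with array weights, against 4, with those of LIFR and IL6ST kept under every alternative run. With 1 array left out in turn, the number of these genes called ranged from 4 to 6 for EBSS against mock medium, 2 to 4 at 3 h, 2 to 3 at 6 h, 3 to 3 at 9 h, 3 to 5 for siNupr1, 5 to 6 for siRelA, 2 to 6 for siRelB, 0 to 1 for siRelB against siRelA and 2 to 4 between the sets. It was 0 throughout for the slope with hours and for the tests by medium, in which 10 of 14 such fits could be made. Of all genes, array weights called 2173 at 3 h (against 1361), 1517 at 9 h (against 2675), 3271 for siNupr1 (against 2033), 39 for siRelA by medium (against 4) and 6 for siRelB by medium (against 0). Without 1 array those counts ran from 356 to 1710 at 3 h, 823 to 2990 at 6 h, 1639 to 2703 at 9 h, 840 to 2403 for siNupr1, 1120 to 2720 for siRelA, 761 to 2151 for siRelB, 313 to 1442 for siRelB against siRelA and 1743 to 2994 between the sets. The causes were not tested. No paired analysis was possible because the labels give no replicate numbers to use as a block, beyond the matching of arrays by siRNA, medium and hour that the fit already makes. Probe signal over background is not in these summarised values, so the limit of detection of IL6 and CXCL3 is not known.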
